A study of Mus musculus with 4 samples.

Results

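The miR-126a hairpin gives rise to a pair of mature strands, miR-126a-3p and miR-126a-5p, and both were followed here in aortas of mice with chronic kidney disease (CKD). They were taken by name, with the species prefix dropped, and are 2 of the 1152 entries listed in each library. The series holds 2 CKD libraries and 2 Sham libraries of small RNA of 18 to 30 nucleotides, each made from 4 pooled samples. All 4 came from aortas of wild type C57BL/6 mice, a common inbred laboratory strain, labelled 12-week. For the CKD model the labels describe removal of the poles of the left kidney, removal of the right kidney 1 week later, and 4 weeks on a 2% phosphate diet with 0.45% NaCl in the drinking water. The same text stands with the Sham libraries, so how the Sham mice were handled cannot be read from them. The libraries held 17532748 and 16658810 reads in CKD and 17520690 and 16878392 reads in Sham, as recovered from the deposited values.

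miR-126 is the best known endothelial miRNA. It is made from an intron of Egfl7, a gene for a protein secreted by endothelial cells. The 3p strand is known to repress Spred1 and Pik3r2, inhibitors of signalling downstream of VEGF, and, in human endothelial cells, the adhesion molecule VCAM1. The 5p strand is known in mice to repress Dlk1 and so to favour endothelial proliferation. Platelets also carry miR-126. miR-145a-5p, used here as a comparison, is a product of the cluster of miR-143 and miR-145a in contractile smooth muscle, the main cell type of the aortic wall.

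The sequences show where miR-126a-3p lies in its hairpin and which of its bases form the seed. In GRCm38.p6 the hairpin Mir126a lies at chr2:26591357-26591429 on the plus strand. RefSeq gives miR-126a-3p at chr2:26591402-26591423, positions 46 to 67 of the hairpin. Of the members, 1 of 2 was matched by name to a RefSeq mature sequence. miR-126a-5p was not matched, so its position and seed are not shown. In the first line the capitals mark the seed, bases 2 to 8, which leads target pairing. In the second line they mark miR-126a-3p within its hairpin.
miR-126a-3p: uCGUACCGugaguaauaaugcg
Mir126a hairpin: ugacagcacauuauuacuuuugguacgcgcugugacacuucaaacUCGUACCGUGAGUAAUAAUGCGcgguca
No other mature miRNA among 1679 RefSeq names shares this seed. RefSeq matched 900 of the 1079 named entries. GENCODE M21, also on GRCm38, places the hairpin inside Egfl7 (chr2:26580014-26593120, plus strand) and inside Gm20532, a gene model that overlaps it on the same strand. In all 7 protein-coding Egfl7 transcripts that span the hairpin it is intronic. It lies between exons 7 and 8 in 3 of these, and it overlaps an exon of 1 retained-intron transcript.

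An antisense hairpin, Mir126b, occupies the opposite strand of the same site. Its 58 bases are the reverse complement of a stretch of the 73-base Mir126a hairpin that starts at position 7. miR-126b-3p (chr2:26591363-26591385, minus strand) is shown with its seed in capitals because it is the only other entry from this site.
miR-126b-3p: cGCGUACCaaaaguaauaaugug
It had 5 and 2 reads in the CKD libraries (0.29 and 0.12 CPM, counts per 1000000 reads of the listed entries), and no reads in either Sham library. A count of 0 allows up to 3 reads there, which is 0.171 and 0.178 CPM. At a mean of 0.10 CPM over the 4 libraries, miR-126b-3p was not tested for a difference, and miR-126b-5p was not among the listed entries.

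On the deposited scale both miR-126a strands were about 3 times as high in CKD as in Sham, on a scale where limma called 83.9% of all tested entries. miR-126a-3p had 7510.4 and 7457 CPM in the CKD libraries, against 2208 and 2626 CPM in the Sham libraries. Both CKD libraries lay above both Sham libraries, and the CKD pair differed by a factor of 1.01, the Sham pair by 1.19. The means were 7484 ± 37.8 CPM in CKD and 2417 ± 295 CPM in Sham (SD, n = 2 each). By limma on log2(CPM + 1) across the 479 entries with a mean of at least 1 CPM, which includes both strands, the difference was 1.64 (SE 0.32, Benjamini-Hochberg adjusted p = 0.0015), a 3.11-fold increase with a 95% interval of 1.92 to 5.02.

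miR-126a-5p, the less abundant strand, also rose. It had 2478 and 2310.4 CPM in the CKD libraries, against 690.3 and 785 CPM in the Sham libraries, again without overlap. Its means were 2394 ± 119 CPM in CKD and 738 ± 67.1 CPM in Sham (SD, n = 2 each). On the log2 scale it differed by 1.70 (SE 0.37, limma adjusted p = 0.0021), a 3.25-fold increase with a 95% interval of 1.86 to 5.65. Together the strands made up 0.999% and 0.977% of reads in the CKD libraries, against 0.290% and 0.341% in the Sham libraries. Both calls were lost without CKD 1 (limma adjusted p = 0.081 for 3p and 0.089 for 5p) and without CKD 2 (0.053 and 0.064), at differences of 1.63 to 1.75. Each limma p-value reflects only the spread between pooled libraries of a group, for the strand and, through the variance model, for other entries. That spread may be technical. In this whole tissue, fewer cells of a type and less RNA per cell cannot be told apart.

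That increase was shared by most of the list. On the deposited scale limma called 83.9% of the tested entries, 82.9% higher and 1.04% lower in CKD, and 91.2% had both CKD libraries above both Sham libraries. The median log2 difference over all tested entries was 1.34, while 69.9% of entries lay below miR-126a-3p and 75.2% below miR-126a-5p. The place of the strands in the order by level moved little. miR-126a-3p ranked 24 and 25 among all entries in the CKD libraries, against 26 and 31 in the Sham libraries, and miR-126a-5p ranked 44 and 45, against 45 and 47. The abundant miR-143-3p moved the opposite way, with 411359 and 407824 CPM in the CKD libraries, against 798183 and 725182 CPM in the Sham libraries. Each library sums to a fixed total. With library totals counted without miR-143-3p the strands differed by 0.31 and 0.37 on the log2 scale (limma adjusted p = 0.18 for both).

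**Figure D1:**
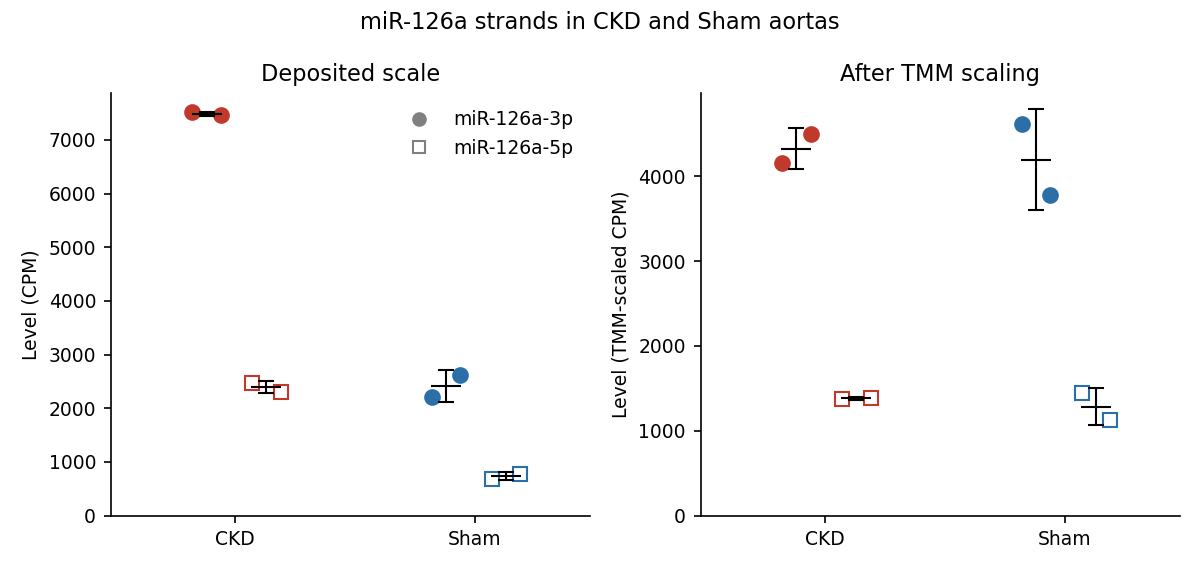
Level of miR-126a-3p (filled circles) and miR-126a-5p (open squares) in each CKD (red) and Sham (blue) library, as deposited CPM on the left and as TMM-scaled CPM on the right. Black bars give the mean and SD of 2 libraries; CKD lies about 3 times above Sham on the left, and the groups overlap on the right.

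After trimmed-mean (TMM) scaling, which removes the shift common to most entries, the CKD and Sham values of both strands overlapped and neither strand passed the test. miR-126a-3p then had 4152 and 4492 TMM-scaled CPM in the CKD libraries, against 4614 and 3774 in the Sham libraries. The Sham values enclose the CKD values. On the log2 scale it differed by 0.05 (SE 0.14, limma adjusted p = 0.86), a fold of 1.03 with a 95% interval of 0.793 to 1.35. miR-126a-5p had 1370.1 and 1392 TMM-scaled CPM in the CKD libraries, against 1442 and 1128 in the Sham libraries, and these overlap as well. It differed by 0.11 on the log2 scale (SE 0.16, limma adjusted p = 0.67), a fold of 1.08 with a 95% interval of 0.807 to 1.45. On this scale limma called 7.72% of entries, 1.88% higher and 5.85% lower in CKD. The sign for miR-126a-3p turned with upper-quartile scaling (-0.045), and without Sham 2 the strands lay at -0.088 and -0.055. Without CKD 2 miR-126a-3p lay at -0.00.

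**Figure D2:**
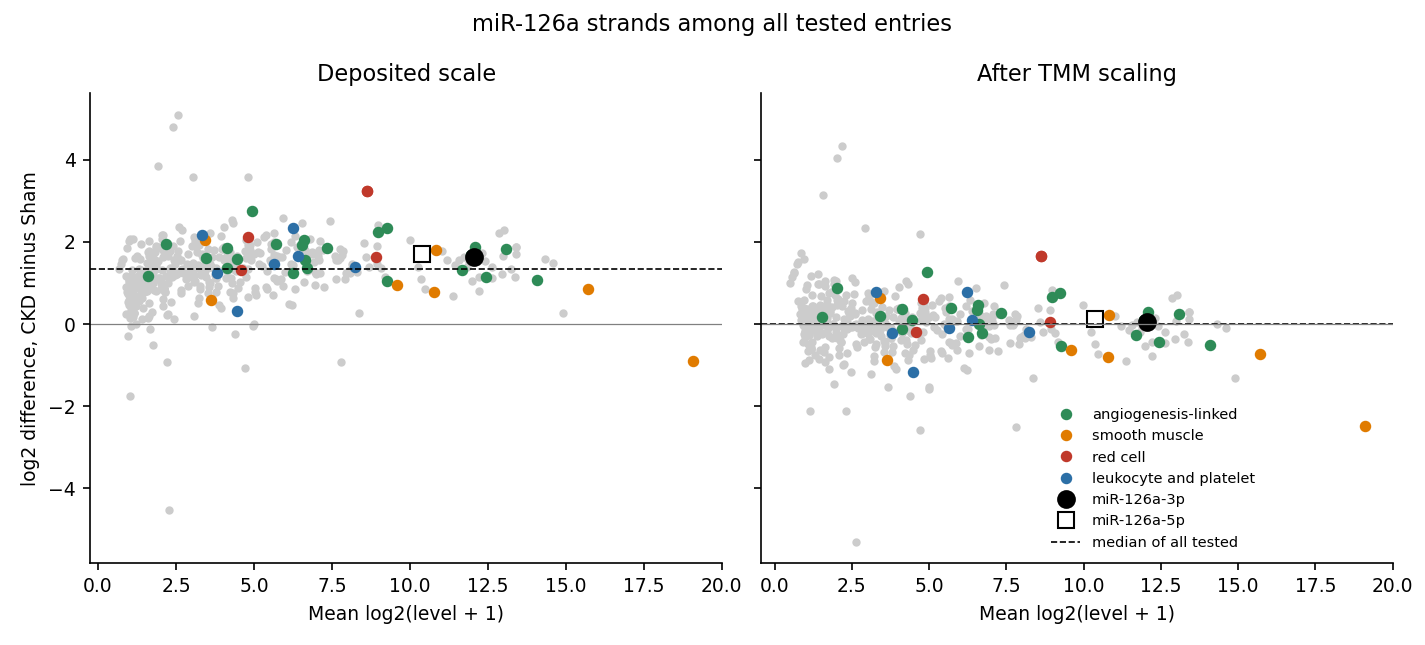
log2 difference (CKD minus Sham) against mean log2(level + 1) for the 479 tested entries on the deposited scale (left) and after TMM scaling (right); grey points are all entries, colours the fixed lists, black symbols the miR-126a strands, the dashed line the median. The strands sit at 1.64 and 1.70, above the median of 1.34, on the left, and at 0.05 and 0.11 on the right.

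The balance of the strands does not depend on how a library is scaled, since both are read from the same library. Relative to its 5p partner, miR-126a-3p stood at 3.03 and 3.23 in the CKD libraries, against 3.20 and 3.34 in the Sham libraries. The groups overlap, and 3p was the more abundant strand in all 4 libraries. As a share of miR-126a reads, 3p made up 75.2% and 76.3% in the CKD libraries, against 76.2% and 77.0% in the Sham libraries. The Wilson 95% intervals, which cover counting error only since no molecular identifiers are described, ran from 75.0% to 75.4% in CKD 1 and from 76.1% to 76.6% in CKD 2, and from 75.8% to 76.6% in Sham 1 and from 76.6% to 77.3% in Sham 2. CKD 1 thus lay below CKD 2 by more than counting error, within the same group. The mean shares were 75.8% ± 0.817 in CKD and 76.6% ± 0.564 in Sham (SD, n = 2 each).

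Across the 130 hairpins with both strands tested, the miR-126a ratio was among those that moved least. Its change on the log2 scale was -0.06 (SE 0.15, limma adjusted p = 0.77), with a 95% interval of -0.43 to 0.30. Only 11 hairpins had a smaller absolute change, and the median absolute change was 0.45. These hairpins include strands down to a mean of 1 CPM, where the pseudocount of 1 CPM itself moves the ratio, unlike for the abundant miR-126a strands. Hairpins called numbered 16 with a pseudocount of 0.1 and 84 with 10. limma called 28.5% of these hairpins, 11.5% with the 3p share higher and 16.9% with it lower in CKD. With 1 CPM added to each strand, as in the fit, miR-126a ranked 39 by mean ratio of 3p to 5p. Just above it stood miR-511, whose ratio so taken was 3.90 and 5.72 in the CKD libraries, against 2.26 and 2.62 in the Sham libraries. These are not plain CPM ratios: miR-511-3p had only 3.2 and 4.27 CPM in the Sham libraries, so the added CPM weighs on them. Just below, taken likewise, stood miR-132, a hairpin known to respond to CREB, at 2.34 and 2.39 in CKD, against 3.34 and 3.10 in Sham. miR-132-3p had 8.05 and 8.53 CPM in the Sham libraries, so the added CPM also bears on its ratio and its place. The ratio of miR-511 was called (log2 change 0.96, limma adjusted p = 0.034) and that of miR-132 was not (-0.45, limma adjusted p = 0.067). The miR-511 call was lost without Sham 1 (limma adjusted p = 0.071) or CKD 2 (0.0704), without a filter (0.0698) and with a pseudocount of 0.1, where the change was 0.62 (0.15). With that pseudocount miR-132 was called (-0.79, limma adjusted p = 0.046). Whether these changes differ from that of miR-126a was not tested.

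**Figure D3:**
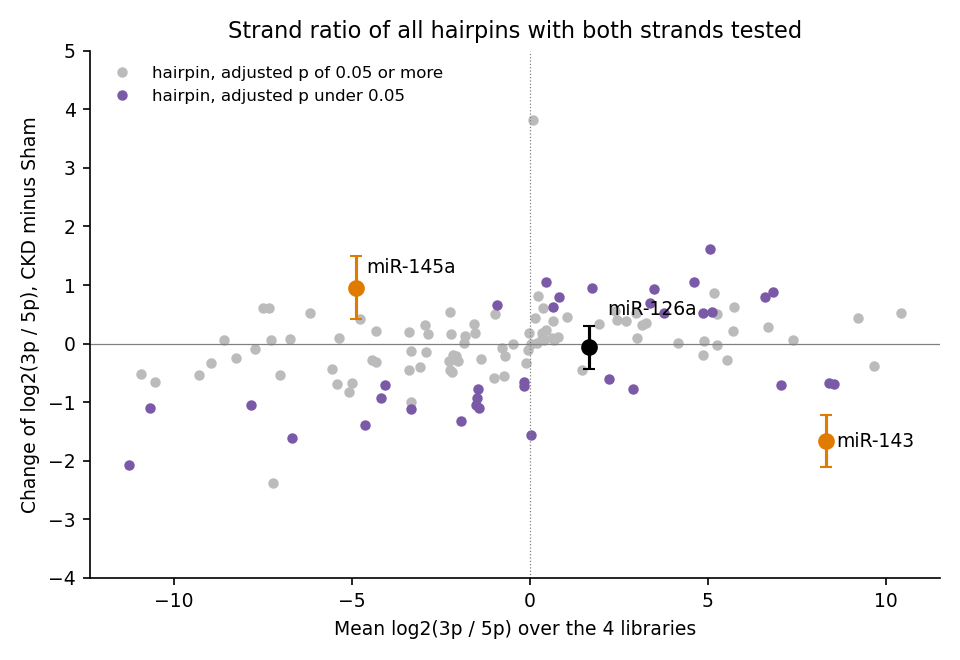
Change of the strand ratio, log2(3p / 5p) in CKD minus Sham, against its mean over the 4 libraries, for 130 hairpins. Each strand has 1 CPM added, and purple points passed a limma adjusted p of 0.05. miR-126a (black, 95% interval) lies at -0.06, miR-145a at 0.96 and miR-143 at -1.67 (orange, 95% intervals).

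Set against the smooth muscle strand miR-145a-5p, both miR-126a strands rose in CKD. miR-145a-5p itself had 67969.6 and 75726 CPM in the CKD libraries, against 33419 and 47242 CPM in the Sham libraries, and it rose by 0.85 on the log2 scale as deposited but fell by 0.73 after TMM scaling (limma adjusted p = 0.0043 and 0.044). As deposited it no longer passed with CKD 1 left out (limma adjusted p = 0.12) or with CKD 2 left out (0.14), nor without a filter (0.079). The TMM call did not hold when any 1 library was left out (limma adjusted p = 0.13 to 0.23), without a filter (0.15), without a trend (0.086), with median-of-ratios scaling (0.0505) or in edgeR (0.054). The level of miR-126a-3p was 11.0% and 9.85% of that of miR-145a-5p in the CKD libraries, against 6.61% and 5.56% in the Sham libraries. The groups do not overlap. The mean ratio was 10.4% ± 0.850 in CKD and 6.08% ± 0.742 in Sham (SD, n = 2 each). On the log2 scale the ratio differed by 0.78 (SE 0.19, limma adjusted p = 0.0073), a 1.72-fold increase with a 95% interval of 1.30 to 2.27. For miR-126a-5p the ratio was 3.65% and 3.05% in the CKD libraries, against 2.07% and 1.66% in the Sham libraries, again without overlap. It differed by 0.85 on the log2 scale (SE 0.21, limma adjusted p = 0.0098), a 1.80-fold increase with a 95% interval of 1.30 to 2.48. Exact permutation of the 4 libraries cannot go below a two-sided p of 0.333, the value both ratios gave.

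Many other entries rose against miR-145a-5p as well. Of 478 tested entries, limma called 36.0% by this ratio, 33.7% higher and 2.30% lower in CKD, and 62.3% had both CKD libraries above both Sham libraries, with a median log2 difference of 0.49. The call depended on single libraries and on the variance model. Without Sham 1 or Sham 2 it was lost for 3p (limma adjusted p = 0.12 and 0.26) and for 5p (0.12 and 0.32). Without CKD 1 it was lost for 5p (0.0503), and without a mean-variance trend for both (0.059 and 0.053).

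The outcome also depended on which smooth muscle strand was the denominator. Against miR-145a-3p, the other strand of the same hairpin, miR-126a-3p stood at 2.05 and 2.38 in the CKD libraries and at 2.69 and 2.30 in the Sham libraries, which overlap (-0.17 on the log2 scale, SE 0.15, limma adjusted p = 0.40). miR-126a-5p stood at 0.676 and 0.736 of miR-145a-3p in the CKD libraries and at 0.841 and 0.688 in the Sham libraries, with overlap too (-0.11, SE 0.15, limma adjusted p = 0.60). miR-126a-3p stood at 1.83% of miR-143-3p in both CKD libraries, against 0.277% and 0.362% in the Sham libraries. Against miR-143-3p the log2 differences were 2.53 for 3p and 2.59 for 5p (limma adjusted p = 6.8e-08 and 5.0e-07). Exact permutation gave 0.333 for both, the lowest value it can reach. miR-143-3p itself lay at -0.89 on the log2 scale as deposited. The share of all entries called was not counted for these denominators, so these ratios have no background beside them.

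The smooth muscle hairpins themselves changed their strand balance. miR-145a-3p was 5.39% and 4.15% of miR-145a-5p in the CKD libraries, against 2.46% and 2.42% in the Sham libraries, a change of 0.96 on the log2 scale (SE 0.22, limma adjusted p = 0.031). For miR-143 the 3p strand stood at 157 and 202 times the 5p strand in the CKD libraries, against 627 and 509 times in the Sham libraries, a change of -1.67 on the log2 scale (SE 0.18, limma adjusted p = 0.0088). The miR-145a call was lost without Sham 1 (limma adjusted p = 0.12) or Sham 2 (0.073), and with a pseudocount of 0.1 (0.054).

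**Figure D4:**
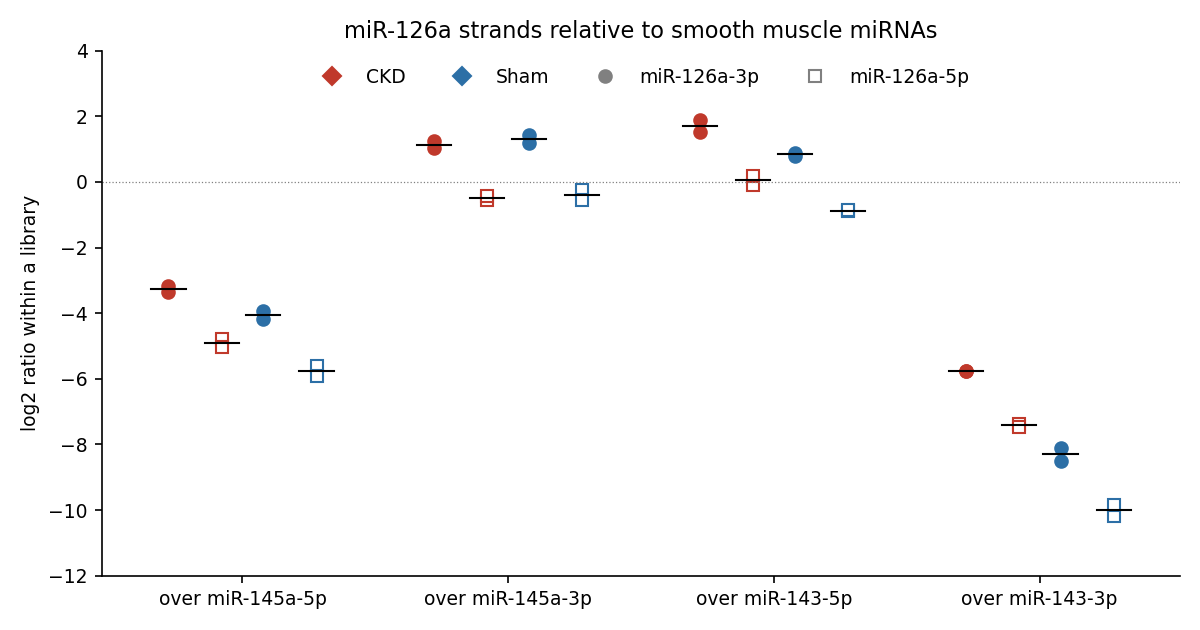
log2 ratio of miR-126a-3p (filled circles) and miR-126a-5p (open squares) to 4 smooth muscle strands in each CKD (red) and Sham (blue) library; black bars are means of 2 libraries. CKD lies above Sham over miR-145a-5p, miR-143-5p and miR-143-3p, and the groups overlap over miR-145a-3p.

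The miRNA whose profile over the 4 libraries was nearest to that of miR-126a-3p was its partner strand. Likeness was the root mean square distance between log2(CPM + 1) profiles, each centred on its own mean, among 252 other named miRNAs with a mean of at least 10 CPM. miR-126a-5p lay at 0.05 from miR-126a-3p, followed by miR-99b-5p (0.06), miR-337-5p (0.06), miR-379-5p (0.07) and miR-99b-3p (0.07), against a median distance of 0.24. For miR-126a-5p the nearest was miR-99b-3p (0.03), before miR-126a-3p (0.05), miR-34a-5p (0.07), miR-99b-5p (0.08) and miR-30b-3p (0.08). miR-99b-5p had 6251 and 5732 CPM in the CKD libraries, against 1697 and 2204 CPM in the Sham libraries. The strands of miR-99b (chr17:17830194-17830215 and chr17:17830232-17830253, plus strand, GRCm38.p6) are shown with their seeds in capitals because both are among the nearest to each miR-126a strand, and neither has the seed of miR-126a-3p.
miR-99b-5p: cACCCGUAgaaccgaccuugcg
miR-99b-3p: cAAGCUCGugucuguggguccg
With 4 libraries in 2 groups, the distance is small for miRNAs with a like CKD to Sham difference and like spread within the groups.

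Of 26 angiogenesis-linked miRNAs, 25 were tested. As deposited limma called all 25 higher, beside 82.9% of all tested entries, at a median of 1.68 against 1.34 over all. After TMM scaling limma called 1 higher, none lower and 24 in neither direction, beside 1.88% of all tested entries called higher and 5.85% lower, with a median of 0.16 against -0.00 over all tested entries. The 1 was miR-221-3p, known in human endothelial cells for restraining Kit signalling, which had 1358 and 1383 CPM in the CKD libraries, against 223 and 325 CPM in the Sham libraries (0.76 on the log2 scale after TMM scaling, limma adjusted p = 0.039). That call was lost without any 1 library (limma adjusted p = 0.13 to 0.23), without a filter (0.061), without a trend (0.059) and with upper-quartile scaling (0.052). The most abundant members, miR-27b-3p and miR-24-3p of the miR-23/27/24 clusters, lay at -0.52 and 0.25 after TMM scaling without passing in limma. DESeq2 called miR-27b-3p lower (-0.49, adjusted p = 2.7e-04). Of 13 miRNAs linked to endothelial inflammation or flow, 12 were listed and 11 tested. As deposited limma called 10 higher, beside 82.9% of all tested entries, and 1 did not pass, at a median of 1.39. After TMM scaling none passed in limma, beside 7.72% of all tested entries, at a median of -0.06. miR-21a-5p, known to be induced by inflammation, had 13977 and 18127 CPM in the CKD libraries, against 2875 and 4084 CPM in the Sham libraries. miR-10a-5p, known to restrain NF-kB signalling, had 7416 and 9298 CPM in the CKD libraries, against 3169 and 4449 CPM in the Sham libraries. After TMM scaling miR-21a-5p lay at 0.63 and miR-10a-5p at -0.44 on the log2 scale (limma adjusted p = 0.13 and 0.23).

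Markers of other cell types moved beside miR-126a, and their part in the result was not tested. The smooth muscle list of 7 miRNAs, with none at 0, summed to 486837 and 489695 CPM in CKD, against 834206 and 775615 CPM in Sham. Most of each sum was miR-143-3p, with 411359 and 407824 CPM in CKD, against 798183 and 725182 CPM in Sham. On the deposited scale 6 of the 7 had a log2 difference above 0 and 1 below. As deposited limma called 4 of the 7 higher and 1 lower, and 2 did not pass. Over all tested entries it called 82.9% higher and 1.04% lower. The median log2 difference of the 7 was 0.85, against 1.34 over all tested entries. After TMM scaling limma called 1.88% of all tested entries higher and 5.85% lower. Of the 7 it called miR-143-3p (-2.48) and miR-145a-5p (-0.73) lower and 5 did not pass. DESeq2 called both, and also miR-143-5p lower (-0.79, adjusted p = 6.9e-04) and miR-145a-3p higher (0.26, adjusted p = 0.043). Without CKD 1 or CKD 2 no entry passed on the TMM scale by limma, with 92 and 109 at an unadjusted p under 0.05. The 7 leukocyte and platelet miRNAs, among them miR-146a-5p and miR-142a-5p, summed to 873 and 1051 CPM in the CKD libraries, against 237 and 463 CPM in the Sham libraries. miR-126a-3p stood at 8.60 and 7.09 times that sum in CKD, against 9.33 and 5.67 times in Sham, so the groups overlap. The other strand of the miR-142a hairpin, miR-142a-3p, had 18.5 and 30.4 CPM in CKD, against 10.4 and 33.5 CPM in Sham. It was not called as deposited (0.32 on the log2 scale, limma adjusted p = 0.54). Of the 5 red cell miRNAs, the identically listed miR-486a-5p and miR-486b-5p, whose reads cannot be told apart here, had the highest mean. miR-451a, with 510 and 1425 CPM in CKD and 130 and 574 CPM in Sham, was higher than these except in CKD 2. The 5 summed to 1481 and 8070 CPM in the CKD libraries, against 296 and 1052 CPM in the Sham libraries. The shared miR-486 values, 445 and 3266 CPM in CKD and 76.9 and 212 CPM in Sham, enter this sum under both names. miR-126a-3p stood at 5.07 and 0.924 times that sum in CKD, against 7.45 and 2.50 times in Sham, ratios that the double entry lowers, most in CKD 2. The 5 adipocyte miRNAs, led by miR-378a-3p and miR-365-3p, summed to 3575 and 2666 CPM in the CKD libraries, against 702 and 1171 CPM in the Sham libraries. miR-126a-3p stood at 2.10 and 2.80 times that sum in CKD, against 3.15 and 2.24 times in Sham. As deposited limma called all 5 red cell, 6 of 7 leukocyte and platelet, and 4 of 5 adipocyte miRNAs higher, beside 82.9% of all tested entries. None of these 3 lists had a member at 0 or a member called by limma after TMM scaling. The red cell count holds the miR-486 values under both names. Without a filter limma lost the deposited calls of miR-451a (adjusted p = 0.27), miR-486a-5p (0.12), miR-142a-5p (0.15) and miR-365-3p (0.052), but kept miR-146a-5p and miR-378a-3p. edgeR with library totals lost miR-451a (adjusted p = 0.098) and miR-142a-5p (0.060). Leaving out 1 library gave 0.57 to 2.71 for miR-451a and 1.79 to 4.67 for miR-486a-5p.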

How the data were processed

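Small RNA libraries of 2 CKD and 2 Sham aorta pools, of 4 samples each per the labels' protocols, were analysed. Bowtie and GRCm38 appear, without roles, in the software and build lists from the submitters' processing notes; no source used here gives the annotation, the counting or the versions. Each library of deposited values, written to 2 decimals, adds up to about 1000000, so they were read as CPM made by the authors. Of the deposited tables, 3 have a single column that holds all names and then all values (unit other), and these were paired by position. All non-zero deposited CPM (100%) were whole multiples of 1 read within 0.005 CPM, giving 17532748 and 16658810 reads in CKD and 17520690 and 16878392 in Sham for the listed entries. edgeR 4.0.16 on these reads called 31 entries with TMM factors and 375 with library totals.

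limma 3.58.1 with a mean-variance trend (R 4.3.3) was run on log2(CPM + 1), with group as the only term, two-sided, for entries with a mean of at least 1 CPM, and adjusted over all of them at 0.05. The same fit was run after TMM scaling, on ratios to miR-145a-5p, and on 3p to 5p ratios of hairpins whose strands pair by name. TMM factors were 1.81 and 1.66 in CKD and 0.479 and 0.696 in Sham. The fits were also run on simulated data with changes balanced in both directions and miR-143-3p and miR-145a-5p held unchanged. That simulation has no shift common to most entries, so it does not test the fits under the one seen here. Named miRNAs were the members, the comparison, the endothelial and smooth muscle lists, the called (up to 4) or 2 most abundant of other lists, the 5 nearest in profile, and the hairpins ranked beside miR-126a. The members and lists were chosen with earlier results of these data known. Alternatives were other pseudocounts, filters, scalings and denominators, no trend, DESeq2 1.42.0, a replicate block and leaving out each library. For miRNAs other than the members they were added after seeing the data.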

Additional observations from a re-analysis of the deposited data

How the results depend on the processing

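For the miR-126a strands, pseudocounts, filters, edgeR and the replicate block changed no direction and no call. Scaling by reads other than miR-143-3p ended the deposited calls, at 0.31 for 3p and 0.37 for 5p, and there 27 entries were called against 402. It also turned miR-145a-5p (-0.47), miR-143-5p (-0.55), miR-133a-3p (-0.38), miR-1a-3p (-0.66), miR-27b-3p (-0.26) and miR-10a-5p (-0.18). Upper-quartile scaling turned miR-126a-3p to -0.045 on the TMM scale, and miR-145a-3p as denominator turned the ratios to -0.17 and -0.11. Without a trend the ratio calls were lost at unmoved differences of 0.78 and 0.85, and 77 entries were called against 172. The causes were not tested.

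Leaving out each library gave 1.51 to 1.76 for 3p and 1.61 to 1.79 for 5p on the deposited scale, -0.088 to 0.17 and -0.055 to 0.27 on the TMM scale (below 0 for both without Sham 2 and for 3p without CKD 2), 0.66 to 0.91 and 0.69 to 1.00 for the ratios to miR-145a-5p, and -0.11 to -0.02 for the strand ratio. With 1 library left in a group, it is assumed to vary like the other group. Entries called ranged from 137 (without CKD 1) to 384 on the deposited scale, from 0 to 7 on the TMM scale against 37, and from 31 to 188 for the ratio, and hairpins from 16 to 37. The counts of 0 (limma, without CKD 1 or CKD 2) stood beside 92 and 109 entries at an unadjusted p under 0.05. Without CKD 2, 247 entries were called on the deposited scale.

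A minimum mean of 10 CPM called 241 entries on the deposited scale and 22 hairpins. Without a filter 18 entries were called on the TMM scale, 455 by the ratio and 64 hairpins. Hairpins called were 16 with a pseudocount of 0.1 and 84 with 10, where miR-132 turned to 0.25, and 107 entries were called by the ratio with 10. DESeq2 called 74 entries. The replicate numbers do not pair the libraries by any label, and the deviations of the libraries numbered 1 correlated at 0.10. With the replicate block the deposited differences stayed at 1.64 and 1.70, and 10 entries on the TMM scale and 63 hairpins were called. On the TMM scale miR-143-3p, miR-145a-5p and miR-221-3p then had limma adjusted p of 0.063, 0.12 and 0.063, miR-133a-3p as deposited had 0.11, and the strand ratio of miR-132 had 0.046.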
